A study of Danio rerio with 12 samples.

Results

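The genes described here encode splicing factors and heterogeneous nuclear ribonucleoproteins (hnRNPs) in neutrophils sorted from zebrafish larvae. They were taken by symbol from the count table: every entry holding a single gene named sf3a or sf3b, snrp, lsm, prpf or srsf followed by its member number or letter, every hnrnp gene, and rbm17, u2af1, u2af2a and u2af2b. This gave 90 of the 31263 entries of the table, with 13 in the SF3, U2AF and rbm17 group, 12 snrp, 13 lsm, 13 prpf, 15 srsf and 24 hnrnp genes. Each of the 90 is annotated as protein coding. The rule reads symbols only.

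The cells were green fluorescent cells from trunks of mpx:GFP larvae, a line in which the promoter of the neutrophil peroxidase gene mpx drives the reporter. The spinal cord was cut through at 3 days of age, and trunks with the lesion were taken at 8 hours post-injury beside the same region of uninjured larvae of that age. AMD3100, an antagonist of the chemokine receptor Cxcr4, was given at 25 μM from 4 to 8 hours post-injury in 0.1% DMSO, and the controls received DMSO. Injury and treatment were crossed, which gave 4 groups of 3 libraries, which the labels call biological replicates, and each library came from a pool of 2500 to 4800 cells. The design asks what Cxcr4 inhibition does to the neutrophils at a spinal cord lesion.

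Splicing removes introns from pre-messenger RNA and is carried out by the spliceosome, which assembles on each intron from small nuclear RNAs and their proteins. The snrp genes encode the Sm proteins, which form a ring on most of these RNAs, and proteins bound to the U1 and U2 RNAs. The lsm genes encode the related LSm proteins. Some of these form rings on U6 RNA in the nucleus and on messenger RNA undergoing decay in the cytoplasm, and others, such as LSM11, LSM12 and LSM14, are not part of those rings. U2AF and SF3 mark the 3′ end of the intron and its branch point, and the prpf proteins act in the later assembly and catalytic steps. SR proteins (srsf) mostly promote the use of nearby splice sites, while hnRNPs coat nascent RNA and often oppose that use. Counts of transcript ends measure the abundance of these messengers. They measure neither splicing itself nor isoforms.

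The libraries held 655451 to 12173133 counts. Markers of neutrophils (9 of 10 listed found) took 1.56% to 6.01% of counts, and 3.78% to 4.31% in uninjured DMSO libraries against 1.56% to 2.13% in injured DMSO libraries. Markers of macrophages took at most 0.00337%, those of skin at most 0.0495% and those of red blood cells at most 0.0326%, while skeletal muscle markers took 0.0395% to 1.95% with the highest mean in the uninjured AMD3100 group (1.22% ± 0.66, SD, n = 3). Mitochondrially encoded transcripts took 29.9% to 32.1% in uninjured DMSO libraries and 14.2% to 27.8% in the other groups. Injured AMD3100 replicate 1, the shallowest library, stood apart. Its EGFP level was 397 counts per 1e6 (CPM) against 1326 to 1935 in the other libraries, and a count of 0 there allows a level of up to 4.58 CPM. It held the highest or the lowest value of 44 of the 79 tested genes, against 6 to 17 for any other library, and leaving it out moved the injury effect in AMD3100 by over 1.5 times, or changed its sign, for 49 of the 79. In sorted pools, fewer cells of a type and less RNA per cell cannot be told apart.

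Of the 90 genes, 79 had enough counts to be tested and 11 did not: hnrnpa0a, hnrnpa3, hnrnpdl, hnrnpul1l, a gene listed as hnrnpa0l under ENSDARG00000076380, lsm6, lsm11, lsm14b, prpf4ba, snrpd3 and srsf10b. Of these 11, lsm6, lsm14b and snrpd3 had no count in any library. The levels below are CPM scaled for library composition. Because the protocol counts 1 end per transcript, they are not divided by gene length. The median level of all tested entries was 10.1 CPM, and that of the tested splicing and hnRNP genes was 39.9 CPM.

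The hnrnp class had the highest summed level, carried by its most abundant genes, while its median level (40.5 CPM over all 24) was below that of the srsf class (46.7 CPM over all 15). hnrnpa0l (ENSDARG00000036161), related to mammalian HNRNPA0, a protein that binds AU-rich elements in messengers of inflammatory genes, averaged 1195 CPM and alone made up 19.0% of the summed mean level of the 90 genes. With hnrnpaba (ENSDARG00000007960, 702 CPM), an hnRNP A/B protein, it made up 30.2%, and the 10 most abundant genes made up 57.3%. Mean levels within the hnrnp class ran from 0.0684 CPM for hnrnpa0a to that of hnrnpa0l. The most abundant lsm, snrp and srsf genes were lsm12b (279 CPM), the Sm gene snrpg (259 CPM) and srsf2a (224 CPM), an SR protein gene. The SF3 and U2AF genes lay between 9.79 CPM (sf3b5) and 84.3 CPM (sf3b6), a protein that sits at the branch point. No prpf gene averaged more than 51.6 CPM (prpf39, related to a U1 protein of yeast). The genes varied less between replicates than the table as a whole, with a median SD within groups of 0.41 on the log2 scale against 0.58 for all tested entries. This comparison was not matched for level, and the median level was 39.9 CPM for these genes against 10.1 CPM for all tested entries.

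**Figure D1:**
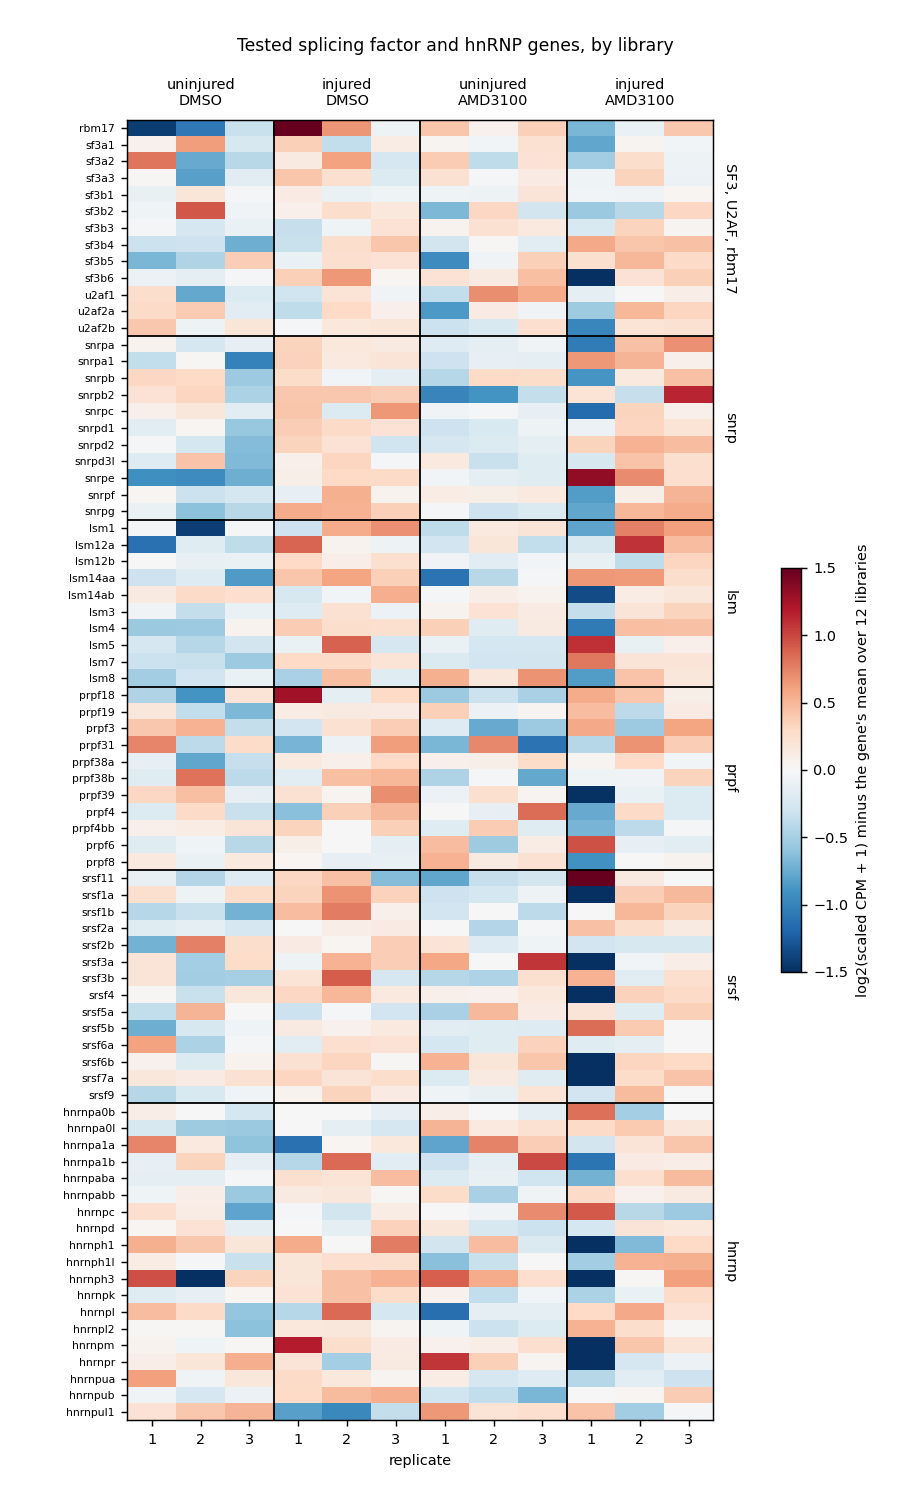
Level of 78 of the 79 tested genes (rows, by class) in each of the 12 libraries (columns, by group and replicate), as log2 of scaled CPM plus 1 minus the gene's mean over the libraries, with colours saturated at 1.5 in either direction. The injured DMSO columns are mostly red. Over all 79 tested genes, including the 1 not drawn, injured AMD3100 replicate 1 held the highest value of 16 and the lowest of 28.

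In DMSO, most of these genes had a small positive log2 fold change after injury, and 3 passed the test. rbm17 and snrpe rose, and hnrnpul1 fell. Of the 79, 62 (78.5%) had a log2 fold change above 0, against 48.7% of all 8453 entries tested, and their median log2 fold change was 0.28 against −0.02. The comparison with all entries was not matched for level. Before adjustment, an edgeR p under 0.05 was found for 10 of the 79, against 1686 of all 8453 entries. The 3 that passed (edgeR quasi-likelihood test, Benjamini-Hochberg adjusted p under 0.05 over all entries) are 3.80% of the 79, and 5.19% of all entries passed. By direction, 2 genes rose and 1 fell, against 2.86% and 2.33% of all entries. The 3 injured libraries all lay above the 3 uninjured ones for 25 genes (31.6%, all entries 15.9%) and all below for 1 gene (1.27%, all entries 13.7%). The count of 3 depends on single libraries: it was 0 without any 1 of the 3 uninjured DMSO libraries, replicate 1 or 2 of the injured DMSO group, or replicate 2 or 3 of the uninjured AMD3100 group. Fewer of all entries passed in those fits too, 163 to 333 against 439 with all 12 libraries. The count was 1 without injured DMSO replicate 3 (187 of all entries) or uninjured AMD3100 replicate 1 (381 of all entries). It was 6 without injured AMD3100 replicate 1, where 7.15% of all entries passed. With all 12 libraries it was 0 with the replicate number as a block (353 of all entries). It was 1 with the muscle marker share as a covariate (416 of all entries), a fit chosen after seeing the data.

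Under AMD3100, none of the 79 passed the test, with 5.42% of all entries passing. An edgeR p under 0.05 before adjustment was found for 10 of the 79, against 1670 of all 8453 entries. DESeq2 called 3 (all entries 8.65%), a fit with no filter on low counts called 2 (3.52%), and an adjusted p under 0.1 took in 3 (8.70%). The log2 fold change was above 0 for 45 genes (57.0%, all entries 46.5%), with a median of 0.04 against −0.07. Libraries did not overlap for 15 genes that were higher (19.0%, all entries 10.5%) and 4 that were lower (5.06%, all entries 14%). Without injured AMD3100 replicate 1 the median was 0.22, with 56 of the 79 (70.9%) above 0, against 0.30 and 63 of the 79 (79.7%) in DMSO in the same fit, and again none passed in AMD3100 (all entries 5.01%). The difference between the 2 injury effects, tested as an interaction, passed for none of the 79 and for 0% of all entries. It had an unadjusted p under 0.05 for 2 of the 79, against 265 of all 8453 entries. DESeq2 called 0 of the 79 for it, a count given without the share of all entries. The estimate was above 0 for 25 (31.6%, all entries 47.3%), or 30 without injured AMD3100 replicate 1.

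As a share of all counts, the 90 genes took 0.548%, 0.441% and 0.447% in the uninjured DMSO libraries and 0.756%, 0.763% and 0.704% in the injured ones. The groups did not overlap, and the ratio of their means was 1.55. In AMD3100 the shares were 0.628%, 0.547% and 0.584% without injury and 0.633%, 0.853% and 0.732% with it, again without overlap, for a ratio of 1.26. Mitochondrially encoded transcripts took 31.2% ± 1.12 (SD, n = 3) of counts in uninjured and 22.8% ± 3.92 in injured DMSO libraries, and 19.5% ± 1.78 and 19.3% ± 7.43 in AMD3100. After composition scaling, the summed level was 5504 ± 277 CPM (SD, n = 3) in uninjured and 6804 ± 303 CPM in injured DMSO libraries, a ratio of 1.24. In AMD3100 it was 6141 ± 309 and 6709 ± 787 CPM, a ratio of 1.09. The overlap there came from injured replicate 1 alone, at 5813 CPM, and the mean of replicates 2 and 3 (7023 and 7289 CPM) gave a ratio of 1.17. Neutrophil markers were lower after injury in AMD3100 too, at 4.32% to 6.01% of counts without and 1.81% to 2.63% with it. Their part in these sums was not tested.

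**Figure D2:**
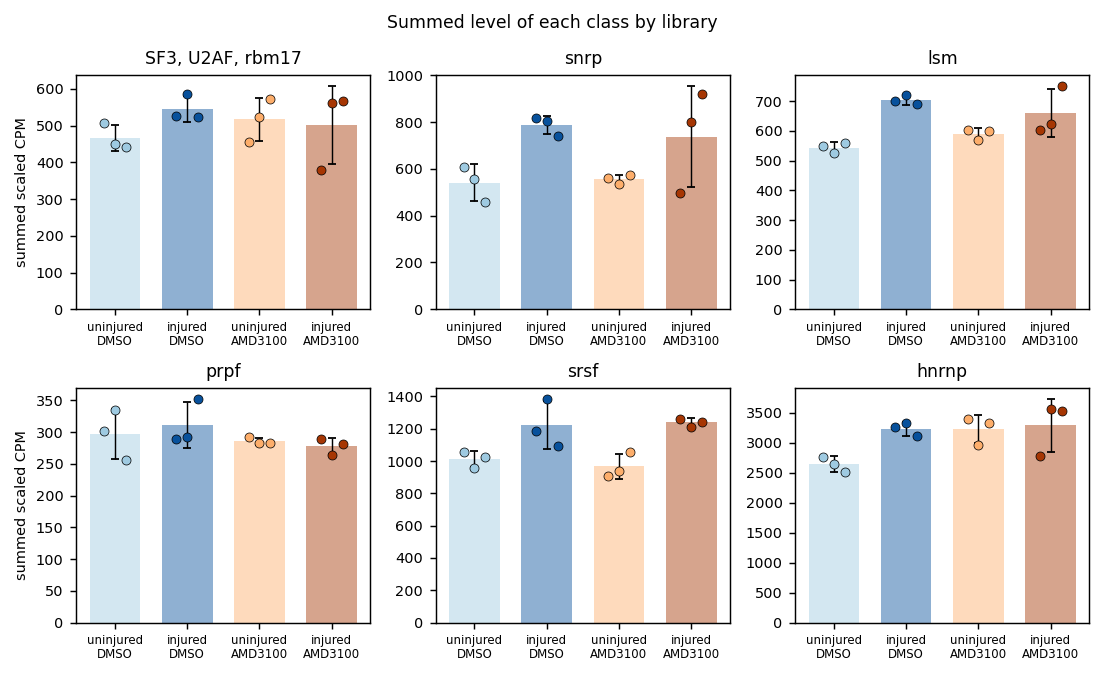
Summed scaled CPM of each class by group, with bars for the mean, error bars for the SD and points for the 3 libraries. In DMSO the sums of 5 of the 6 classes were higher after injury without overlap and those of prpf overlapped, while in AMD3100 the srsf sums alone did not overlap.

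The SF3, U2AF and rbm17 group held the gene with the largest increase in DMSO beside genes with fold changes near 0. rbm17 (ENSDARG00000031346), the SPF45 protein that acts in the choice of 3′ splice sites, measured 3.81, 5.13 and 9.27 CPM in uninjured DMSO libraries and 43.8, 19.4 and 11.2 CPM in injured ones. The groups did not overlap, but the injured libraries spanned a wide range, with replicate 1 far above the others. The log2 fold change was 1.91 (SE 0.50, adjusted p = 0.0378, edgeR), with a value of 1.25 without injured DMSO replicate 1 and a range of 1.25 to 2.47 over all alternatives. In AMD3100 the same gene measured 16.2, 12.5 and 15.5 CPM without injury and 7.01, 11.1 and 16.1 CPM with it. The log2 fold change there was −0.26 (SE 0.47, adjusted p = 0.812), or −0.08 without injured AMD3100 replicate 1, and the interaction of −2.18 (SE 0.68) had an unadjusted p of 0.006 and an adjusted p of 1.00 by edgeR. All 3 uninjured AMD3100 libraries exceeded all 3 uninjured DMSO libraries. The counts behind these levels were low, 7, 7 and 51 in the uninjured DMSO libraries.

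The other genes of the group act at the branch point and the 3′ splice site. sf3b1 (ENSDARG00000056138), the scaffold of the SF3B complex, lay between 44.1 and 54.8 CPM in all 12 libraries, with log2 fold changes of −0.03 in DMSO and −0.04 in AMD3100. Of the 9 SF3A and SF3B genes, 6 were above 0 in DMSO and 3 in AMD3100 (7 without injured AMD3100 replicate 1), and none passed. sf3b4 measured 56.6, 57.1 and 42.2 CPM in uninjured and 56.1, 85.2 and 95.2 CPM in injured DMSO libraries, which overlap. In AMD3100 it measured 58.3, 71.7 and 63.5 CPM without and 105, 95.1 and 96.2 CPM with injury, which do not. Its log2 fold change was 0.61 in both, with adjusted p-values of 0.197 and 0.195. sf3b6 was higher without overlap in DMSO (71.0 to 76.0 CPM against 79.2 to 122 CPM), while the shallow injured AMD3100 library held 16.8 CPM against 90.3 and 99.6 CPM in the other two. The U2AF genes, which bind the end of the intron, had log2 fold changes between −0.14 and 0.15 in DMSO.

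The snrp genes had class medians of 0.37 in DMSO and 0.40 in AMD3100, both above the medians of the whole table. Without injured AMD3100 replicate 1 the median in AMD3100 was 0.55, with all 11 tested above 0. In DMSO, 10 of the 11 tested were above 0 (all entries 48.7%) and 6 were higher without overlap (all entries 15.9%). snrpe (ENSDARG00000033175), a core Sm protein, measured 14.1, 13.9 and 16.4 CPM in uninjured and 29.5, 34.4 and 34.1 CPM in injured DMSO libraries. In AMD3100 it measured 27.0, 25.3 and 24.3 CPM without and 71.5, 45.8 and 33.2 CPM with injury. Injured libraries lay above uninjured ones in both treatments, with log2 fold changes of 1.13 (SE 0.30, adjusted p = 0.0401, edgeR) and 0.93 (SE 0.29, adjusted p = 0.0763). The uninjured AMD3100 libraries also lay above the uninjured DMSO libraries, by 0.77 on the log2 scale (unadjusted p = 0.021, adjusted p = 0.959). Without injured AMD3100 replicate 1, the injury effect in AMD3100 was 0.65 (adjusted p = 0.146).

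snrpg (ENSDARG00000099667), another protein of the Sm ring, had 229, 160 and 184 CPM in uninjured and 362, 353 and 315 CPM in injured DMSO libraries. The groups did not overlap, and the log2 fold change was 0.84 (adjusted p = 0.135, edgeR). In AMD3100 it had 242, 198 and 212 CPM without injury and 143, 349 and 362 CPM with it, so the low value was that of the shallow library. The log2 fold change there was 0.40 (SE 0.31, adjusted p = 0.513). Without that library the log2 fold changes were 0.86 in DMSO (adjusted p = 0.0154) and 0.73 in AMD3100 (adjusted p = 0.0613). Of the 7 tested Sm ring genes, 6 were above 0 in DMSO and 5 in AMD3100, or all 7 in each without that library. The remaining 4 snrp genes encode proteins of U1 (snrpa, snrpc) and U2 (snrpa1, snrpb2), and all 4 were above 0 in both treatments.

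snrpb2 (ENSDARG00000039424), the U2B″ protein, had 35.1, 37.4 and 54.8 CPM in uninjured AMD3100 libraries and 81.3, 55.0 and 157 CPM in injured ones. The groups lie only just apart, with injured replicate 3 well above the others. The log2 fold change was 1.21 (SE 0.36, adjusted p = 0.0634, edgeR), with a range of 0.71 to 1.60 over all alternatives. Its adjusted p rose to as much as 0.214 by edgeR when 1 library was left out. In DMSO it had 82.1, 88.6 and 50.3 CPM without and 93.3, 93.6 and 91.3 CPM with injury, a log2 fold change of 0.34 (adjusted p = 0.649). The larger effect in AMD3100 went with lower uninjured levels, and the interaction of 0.87 (SE 0.50) had an unadjusted p of 0.102.

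The lsm genes had the highest class median in DMSO, 0.61, with 9 of 10 above 0 (all entries 48.7%). Of the 10, 5 were higher without overlap (all entries 15.9%). None passed the test. lsm7 (ENSDARG00000058328), a component of both LSm rings, had 41.3, 41.0 and 35.3 CPM in uninjured and 64.4, 63.9 and 60.4 CPM in injured DMSO libraries. In AMD3100 it had 44.8, 42.5 and 43.0 CPM without and 91.1, 59.9 and 59.8 CPM with injury. The injured libraries were higher without overlap in both treatments, by 0.69 (SE 0.24, adjusted p = 0.123, edgeR) and 0.67 (SE 0.24, adjusted p = 0.133) on the log2 scale. Without injured AMD3100 replicate 1 the increase in DMSO passed (adjusted p = 0.0394). All 6 tested genes of the LSm rings were above 0 in DMSO, and 4 of them in AMD3100 (5 without that library), where the class median was 0.29 (0.28 without it). lsm12b, the most abundant, ranged from 212 to 345 CPM over the 12 libraries. It had 276, 256 and 257 CPM in uninjured and 339, 295 and 326 CPM in injured DMSO libraries, which do not overlap, while the AMD3100 groups overlapped. lsm8, the LSm protein specific to the nuclear U6 ring, was higher without overlap in uninjured AMD3100 than in uninjured DMSO libraries (9.40 to 13.8 CPM against 5.44 to 7.63 CPM), by 0.82 on the log2 scale (adjusted p = 0.976).

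The prpf genes had the lowest class median in DMSO, 0.14, close to the 0.15 of both the hnrnp class and the SF3, U2AF and rbm17 group. In AMD3100 the prpf median was 0.07, above −0.01 for hnrnp and −0.04 for the SF3, U2AF and rbm17 group. Without injured AMD3100 replicate 1 it was −0.09, against 0.04 and 0.05 for those classes. None of the prpf genes passed in either treatment. Of the 5 genes of the tri-snRNP (prpf3, prpf4, prpf6, prpf8 and prpf31), 2 were above 0 in DMSO and 3 in AMD3100 (2 without that library). prpf8 (ENSDARG00000026180), the protein at the catalytic centre of the spliceosome, had 41.9, 35.2 and 42.0 CPM in uninjured and 38.5, 34.7 and 34.9 CPM in injured DMSO libraries. In AMD3100 it had 54.6, 41.6 and 44.3 CPM without and 19.6, 37.5 and 39.1 CPM with injury. The first pair of groups overlaps and the second does not, and the lowest value was that of the shallow library. The log2 fold changes were −0.15 and −0.49 (adjusted p = 0.344, edgeR), and without that library the one in AMD3100 was −0.26 (adjusted p = 0.581).

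**Figure D3:**
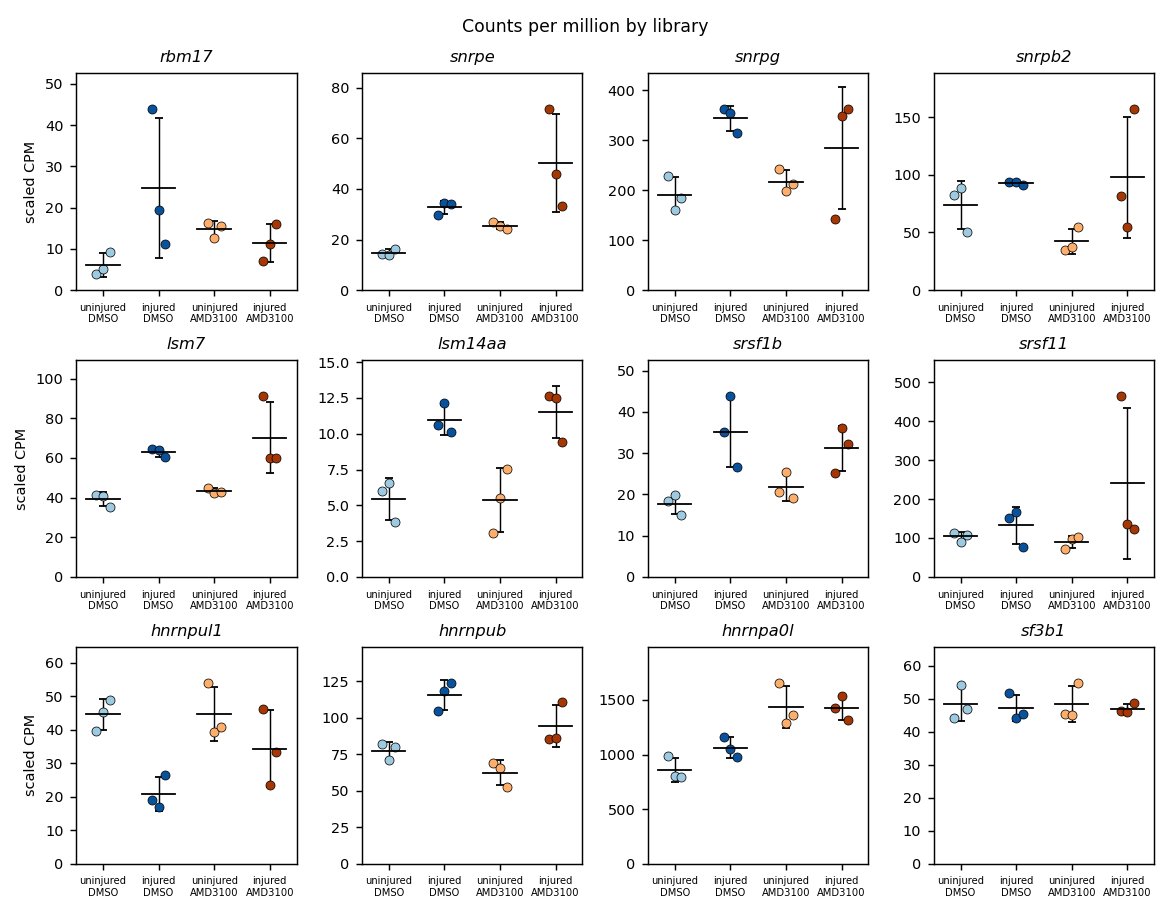
Scaled CPM of 12 genes in each library (points), with the group mean (long line) and SD (error bar), n = 3 per group and a vertical axis from 0 in every panel. snrpe, lsm7, lsm14aa and hnrnpub were higher after injury without overlap in both treatments, while the high point of srsf11 and the low point of snrpg in the injured AMD3100 group belong to replicate 1.

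Among the SR proteins, 12 of 14 tested were above 0 in DMSO (class median 0.29) and 9 in AMD3100 (0.08), and none passed. Without injured AMD3100 replicate 1, 10 were above 0 in AMD3100 (0.27). srsf1b (ENSDARG00000017843), 1 of 2 genes for the SR protein SRSF1, had 18.5, 19.8 and 15.1 CPM in uninjured and 35.2, 43.8 and 26.6 CPM in injured DMSO libraries. The groups did not overlap, and the log2 fold change of 1.00 (SE 0.29) missed the threshold (adjusted p = 0.0583, edgeR). In AMD3100 it had 20.6, 25.4 and 19.0 CPM without and 25.2, 36.1 and 32.2 CPM with injury, which overlap slightly (0.54, adjusted p = 0.300). The summed level of the srsf class was higher after injury without overlap in both treatments, 1012 ± 49.0 to 1222 ± 148 CPM in DMSO and 967 ± 77.0 to 1240 ± 24.9 CPM in AMD3100 (SD, n = 3).

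That last sum hides opposite extremes in 1 library. srsf11 (ENSDARG00000098574), an SR-like protein, had 464 CPM (331 counts) in injured AMD3100 replicate 1 against 136 and 123 CPM in replicates 2 and 3. srsf1a had 40.7 CPM there against 214 and 232 CPM, and srsf7a had 39.3 CPM against 164 and 181 CPM. The log2 fold change of srsf11 in AMD3100 was 1.40 (SE 0.45, adjusted p = 0.0852, edgeR), and without replicate 1 it was 0.54 (adjusted p = 0.335). srsf2a, the most abundant SR gene, was higher without overlap in both treatments, 187 to 200 against 220 to 242 CPM in DMSO and 163 to 221 against 243 to 300 CPM in AMD3100. Its log2 fold changes were 0.26 and 0.42, with adjusted p-values of 0.557 and 0.312.

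hnrnpul1 (ENSDARG00000040564), a relative of the nuclear scaffold protein hnRNP U, was the gene that fell. It had 39.7, 45.4 and 48.9 CPM in uninjured and 18.9, 16.9 and 26.4 CPM in injured DMSO libraries. The groups lay well apart, with a log2 fold change of −1.11 (SE 0.30, adjusted p = 0.0453, edgeR). In AMD3100 it had 53.9, 39.5 and 40.8 CPM without and 46.3, 23.4 and 33.4 CPM with injury, which overlap. The log2 fold change was −0.42 (SE 0.30, adjusted p = 0.469), and the interaction of 0.68 (SE 0.42) had an unadjusted p of 0.126. Of the 19 tested hnrnp genes, 15 were above 0 in DMSO (class median 0.15) and 9 in AMD3100 (−0.01), or 11 in AMD3100 (0.04) without injured replicate 1.

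hnrnpub (ENSDARG00000004735), a gene for hnRNP U itself, had higher values after injury. It had 82.1, 71.0 and 79.8 CPM in uninjured and 105, 119 and 124 CPM in injured DMSO libraries. In AMD3100 it had 69.1, 65.6 and 52.5 CPM without and 85.5, 86.5 and 111 CPM with injury. Neither pair of groups overlapped, and the log2 fold changes of 0.57 (SE 0.23) and 0.60 (SE 0.23) had adjusted p-values of 0.177 and 0.155 by edgeR. hnrnpr had a log2 fold change of −1.02 in AMD3100 (SE 0.38, adjusted p = 0.148), from 87.6, 52.7 and 42.3 CPM to 11.2, 34.4 and 38.7 CPM. Its 11.2 CPM was that of the shallow library, without which the log2 fold change was −0.71 (adjusted p = 0.253).

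No gene passed for AMD3100 itself. Among injured larvae, none of the 79 passed, as 0% of all entries did. An unadjusted p under 0.05 was found for 3, against 466 of all 8453 entries, and DESeq2 called 0 of the 79. Among uninjured larvae none passed, against 0.0118% of all entries. There an unadjusted p under 0.05 was found for 4, against 433 of all 8453 entries, and DESeq2 called 0 of the 79. The share of all entries that DESeq2 called is not given for either comparison, so its counts show nothing particular to these genes. The median log2 fold changes were −0.05 and 0.05, with 36 (45.6%) and 47 (59.5%) of the 79 above 0, against 49.7% and 52.9% of all entries. Without injured AMD3100 replicate 1 the first median was 0.01, with 41 above 0. In injured larvae the AMD3100 libraries lay above the DMSO libraries for 2 genes (2.53%, all entries 4.66%) and below for 4 (5.06%, all entries 5.67%). In uninjured larvae they lay above for 13 (16.5%, all entries 6.91%) and below for 4 (5.06%, all entries 6.02%). This last comparison shares its uninjured DMSO libraries with the injury comparison in DMSO.

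hnrnpa0l, the most abundant gene, had 985, 806 and 791 CPM in uninjured DMSO and 1653, 1284 and 1364 CPM in uninjured AMD3100 libraries. The injured groups had 1161, 1051 and 975 CPM in DMSO and 1423, 1534 and 1313 CPM in AMD3100. AMD3100 libraries were higher without overlap in both states, by 0.74 (SE 0.23, unadjusted p = 0.005, adjusted p = 0.803) and 0.42 (SE 0.23, unadjusted p = 0.082, adjusted p = 0.928) on the log2 scale. Skeletal muscle markers were highest in the uninjured AMD3100 group, with a mean of 1.22% of counts against 0.371% in uninjured DMSO libraries. In injured larvae they took 0.211% ± 0.179 in AMD3100 and 0.309% ± 0.234 in DMSO libraries (SD, n = 3). With the muscle marker share as a covariate, a fit chosen after seeing the data, again none of the genes passed for AMD3100. None had passed without the covariate, so this count says nothing about muscle. The share of all entries that passed in that fit is not given either. The hnrnpa0l estimate of that fit is not reported here.

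The injury effects in the 2 treatments rest on separate libraries. Of the 79 genes, 38 (48.1%) were above 0 in both, against 33.3% of all entries tested, or 47 (59.5%) without injured AMD3100 replicate 1. Across the genes the 2 log2 fold changes correlated with Pearson's r of 0.36 (0.42 without that library), and of 0.56 over all entries. Genes are not independent replicates, and each treatment's values share 1 set of libraries. The 9 genes higher without overlap in both were hnrnpl2, hnrnpub, lsm7, lsm14aa, snrpa1, snrpb2, snrpe, srsf2a and srsf5b. These are 11.4% of the 79, against 5.95% of all entries.

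**Figure D4:**
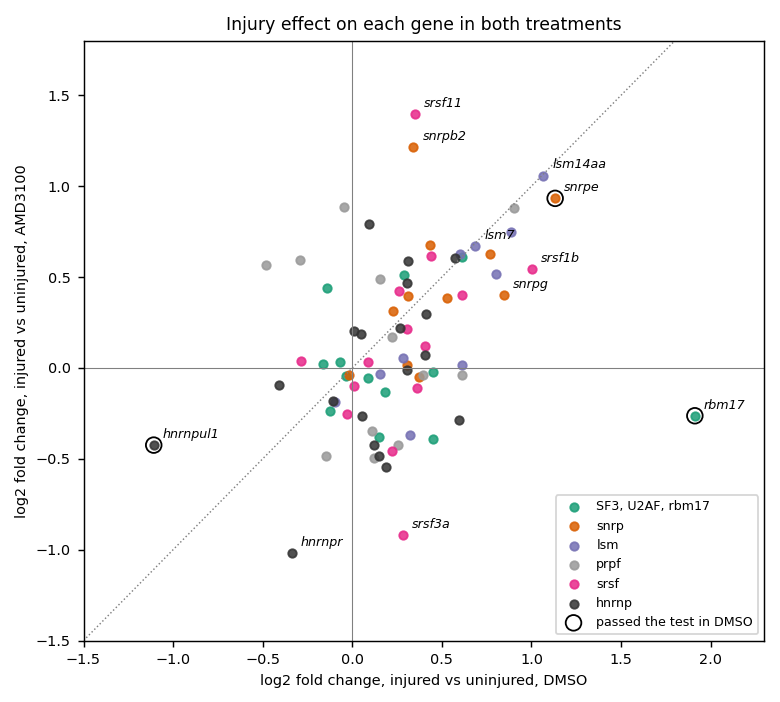
Log2 fold change of each of the 79 genes after injury in DMSO (horizontal) and in AMD3100 (vertical), coloured by class, with the 3 genes that passed in DMSO circled and equal effects on the dotted line. snrpe, lsm14aa and lsm7 lie near the line, and rbm17 lies at 1.91 in DMSO and −0.26 in AMD3100.

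Zebrafish keep both copies of many genes from an ancient genome duplication, and the share of each copy in its pair does not depend on how libraries are scaled. By their symbols 15 pairs ended in a and b. Of these, snrpa with snrpb and prpf38a with prpf38b are different genes, which left 13 pairs, 11 with both copies tested. Most pairs had a dominant copy that stayed dominant in every group. hnrnpaba gave 82.8% to 86.6% of its pair as group means, srsf2a 92.3% to 95.9%, and lsm12a only 5% to 10.2%. The first copy's share did not overlap between injured and uninjured libraries for 3 of the 11 pairs in DMSO and 4 in AMD3100. Over all 532 pairs of tested symbols ending in a and b, 26.1% and 22.4% did not. Those 532 were taken by symbol alone, and different genes were not set aside among them. With only 11 pairs, these counts show nothing particular to the splicing and hnRNP genes. The share of the 532 pairs without overlap in both treatments was not counted.

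In the hnRNP U pair the hnrnpua share was lower in injured than in uninjured libraries of both treatments. hnrnpua gave 33.5%, 26.5% and 27.4% of the pair's counts in uninjured and 23.9%, 20.2% and 18.1% in injured DMSO libraries. In AMD3100 it gave 29.6%, 25.4% and 30.7% without and 18.7%, 21.6% and 16.1% with injury. The group means were 29.1% and 20.7% in DMSO and 28.5% and 18.8% in AMD3100, with SDs of 2.75 to 3.78 percentage points within groups, and here the shallow library lay with its replicates. hnrnpua itself had log2 fold changes of −0.11 and −0.18 (−0.11 without the shallow library), against the 0.57 and 0.60 of hnrnpub.

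The LSM14A pair, which encodes proteins of cytoplasmic P-bodies where messengers are stored and decapped, held a larger share of its minor copy lsm14aa after injury. That copy gave 7.29% to 11.8% of the pair in uninjured and 14.4% to 23.7% in injured DMSO libraries, and 7.03% to 15.1% and 17.0% to 45% in AMD3100. The 45% came from 9 and 11 counts in the shallow library, and the other 2 injured AMD3100 libraries gave 22.1% and 17.0%. lsm14aa (ENSDARG00000006600) had log2 fold changes of 1.07 (SE 0.40, adjusted p = 0.142, edgeR) and 1.06 (SE 0.38, adjusted p = 0.131), and lsm14ab −0.09 and −0.18, the last of which was 0.12 without the shallow library. The srsf5a share was lower after injury without overlap in DMSO (58.7% to 69.6% against 49.7% to 56.2%) and overlapped in AMD3100 (51.9% to 68.4% against 46.2% to 63.5%). In AMD3100 the srsf2a share was higher and the srsf3a share lower without overlap, and 79.4% of srsf3a reads lay in a joint entry outside the pair. No test was made of the pair shares, and reads that match both copies could be split in a way the labels do not describe.

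**Figure D5:**
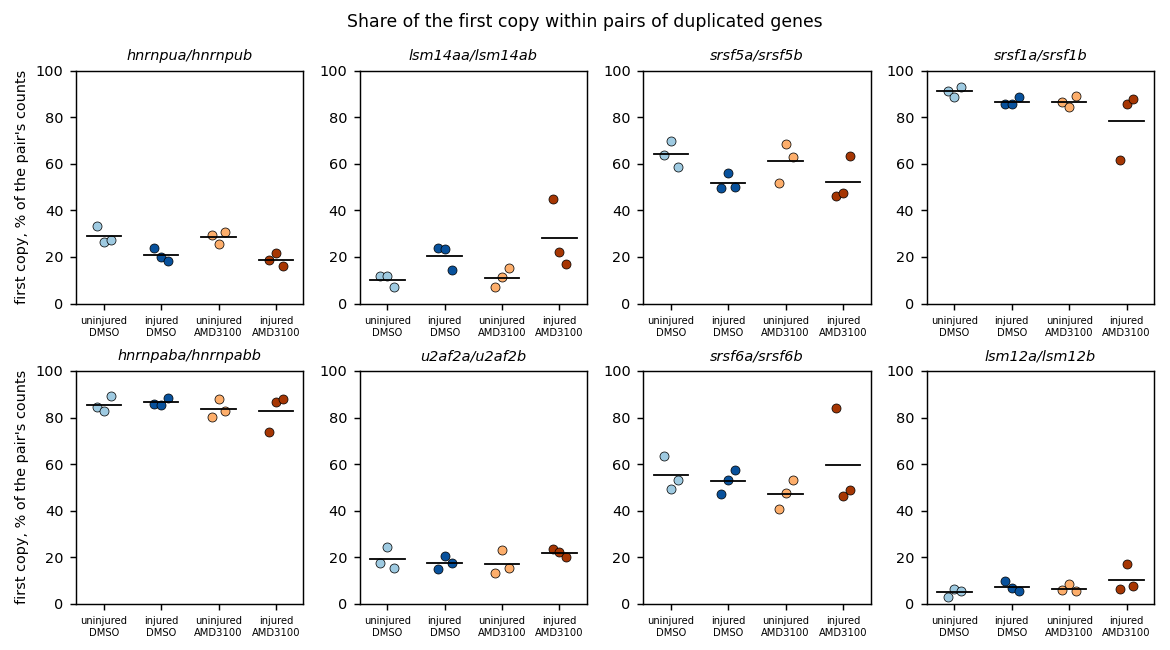
Percent of a pair's counts given by its first copy in each library (points) and as the group mean (line), for 8 of the 13 pairs. The hnrnpua share is lower and the lsm14aa share higher in all injured libraries than in all uninjured ones of the same treatment, while dominant copies such as hnrnpaba stay dominant.

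Other splicing and RNA-processing genes were read from a list of 130, of which 121 were found and 114 tested. In DMSO, 1 rose and none fell, which is 0.877% of the 114 against 5.19% of all entries. The gene was ewsr1a, a FET-family RNA-binding protein, at 34.1 ± 4.87 CPM without and 72.9 ± 7.92 CPM with injury (SD, n = 3), a log2 fold change of 1.08 (SE 0.27, adjusted p = 0.0313, edgeR). The median log2 fold change of the 114 was −0.09 in DMSO, against 0.28 for the 79, and 52 (45.6%) were above 0, against 48.7% of all entries. Libraries did not overlap for 16 that were higher (14%, all entries 15.9%) and 9 that were lower (7.89%, all entries 13.7%). In AMD3100 the median was −0.01 and none passed (all entries 5.42%). Libraries there did not overlap for 8 that were higher (7.02%, all entries 10.5%) and 9 that were lower (7.89%, all entries 14%). None passed for AMD3100 in injured larvae (all entries 0%) or uninjured larvae (0.0118%), or for the interaction (0%).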

How the data were processed

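CEL-seq in an adapted form gave 12 libraries, per the labels' protocols. The authors deposited 1 table of unnormalized read counts with 31351 entries. BWA, genome build GRCz11 and DESeq2 1.38 are named in the submitters' processing notes without their roles. The sources used here do not say whether molecular identifiers were collapsed. Floors cover counting error only.

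The 88 ERCC spike-ins were left out, and 5877 entries joining overlapping genes were kept as entries but not as members. The analysis used edgeR 4.0.16 (R 4.3.3): filterByExpr by group (minimum count 10, minimum total 15), TMM factors, and a quasi-likelihood model with 1 coefficient per group over all 12 libraries. SEs were derived from the F statistic. The 5 contrasts were injury in each treatment, AMD3100 in each state, and the interaction. A floor is 3 counts of a library's total.

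Alternatives were DESeq2 1.42.0, limma-voom (limma 3.58.1), upper-quartile or RLE factors, dropping the filter or asking for 10 CPM in 3 libraries, the contrast's groups alone, the replicate number as a block, omitting mitochondrially encoded genes, a threshold of 0.1, and omitting each library in turn. The fit was also run on counts simulated from the mean levels and spread of these data, which cannot reproduce a library that stands apart. The outcome of that run is not reported here. Genes and lists were chosen with earlier results of these data known. Named genes were those called, the 3 highest and 3 lowest log2 fold changes per contrast, the 3 most abundant per class, their copies, and called genes of the other list. hnrnpub with its copy hnrnpua, hnrnpl2, lsm7, sf3b1, snrpa1, snrpc, srsf5a and srsf5b were named after their values were seen. Other genes outside these rules are also mentioned, such as sf3b5, prpf4, prpf6, prpf31 and hnrnpa0a. Symbols are those of the table, and all 90 gene IDs were found in the reference table of names, 70 under the same symbol. The values of 1 tested gene are not reported here, though the counts include it.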

Additional observations from a re-analysis of the deposited data

Results flagged for a closer look

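Reads of some of these genes were counted in entries that join overlapping genes, which the comparisons above do not use. Of 31 joint entries that carry one of the symbols, 3 had counts in every library. The entry joining hnrnpdl with hnrnpd held 8702 counts over the 12 libraries, 72.3% of the reads in joint and single entries together, against 3338 in their single entries. After injury in DMSO it went from 108 ± 18.1 to 150 ± 12 CPM (SD, n = 3), a log2 fold change of 0.48 (SE 0.32, adjusted p = 0.446, edgeR). The entry joining 2 genes both listed as srsf3a held 1486 counts, 79.4% of the reads, against 385 in the single entry. The entry joining snrpd3 with p2rx4b held 857 counts while the single snrpd3 entry held none. None of the 3 joint entries passed in any contrast.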

How the results depend on the processing

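The count of genes that passed for injury in DMSO was 3 and stayed within 1.5 times that under 9 of 11 other settings. The share of all entries that passed is not given for those 9, so a steady count there need not be a steady share. The count was 0 with the replicate number as a block (353 of all entries). It was 1 with the muscle marker share as a covariate (416 of all entries), a setting chosen after seeing the data. Leaving out 1 library gave 0 to 6. Of all entries, 163 passed without uninjured DMSO replicate 3 and 659 without injured AMD3100 replicate 1, against 439 with all 12 libraries. For injury in AMD3100 (0 in the report, all entries 5.42%) the count of genes was 3 with DESeq2 (all entries 8.65%) and 2 with no filter (3.52%). It was 3 at an adjusted p under 0.1 (all entries 8.70%) and 1 with the muscle covariate (141 of all entries). Leaving out 1 library there gave 0 to 2. The AMD3100 contrasts and the interaction gave 0 in every setting run. Counts given here without a share of all entries show nothing particular to these genes.

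Same-numbered libraries did not deviate together (1 of 18 correlations over 0.1, range −0.11 to 0.14), so the numbers were not taken to pair libraries. The median log2 fold change ranged from 0.22 to 0.33 over the other settings in DMSO and from 0.01 to 0.13 in AMD3100, and from 0.048 to 0.22 there when 1 library was left out. Without mitochondrially encoded genes, the mean share of counts was 0.695% and 0.962% in DMSO and 0.727% and 0.920% in AMD3100, uninjured before injured.

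Of the other listed splicing genes, 1 passed for injury in DMSO, against 4 with DESeq2, 2 with limma-voom, 2 with no filter, 4 with the groups of the contrast alone, 4 at an adjusted p under 0.1, and 0 to 3 when 1 library was left out. These counts stand without the share of all entries that passed in each setting, so they show no change particular to these genes. In AMD3100 (0 in the report, all entries 5.42%) the count was 1 with DESeq2 (all entries 8.65%) and 2 with no filter (3.52%). It was also 2 with the 10 CPM filter and at an adjusted p under 0.1 (all entries 8.70% for the latter), and 0 to 2 when 1 library was left out. For AMD3100 in injured larvae it was 0 to 1 when 1 library was left out, and in uninjured larvae 3 with no filter. These and the other counts given without a share of all entries likewise show no change particular to these genes. The causes were not tested.

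rbm17 passed in DMSO in 9 of 11 other settings and 5 of 12 fits without 1 library, snrpe in 7 and 3, and hnrnpul1 in 8 and 3. Across these fits their adjusted p-values ran from 0.000986 to 0.169, 0.0102 to 0.145 and 0.00986 to 0.181. No direction of a called gene reversed. Depth limits the low genes most, as for rbm17 with 7 counts in 2 libraries.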
